A study of Mus musculus with 4 samples.

Results

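The 10 genes described here, Zeb1, Zeb2, Snai1, Snai2, Twist1, Twist2, Cdh1, Cdh2, Vim and Epcam, are regulators and readouts of the epithelial-mesenchymal transition (EMT). They were taken by symbol from the 32285 genes of the files, and all 10 were found once. The data are 4 droplet single-cell RNA libraries, 1 for each condition, from pancreatic tumors that grew after orthotopic grafting of KPC cells, a mouse pancreatic adenocarcinoma line, into C57BL/6 males that the methods give as obese. Pdgfrb-TK/GCV and Pdgfrb-TK/PBS came from hosts with a viral thymidine kinase driven by the Pdgfrb promoter, which kills dividing Pdgfrb-expressing stromal cells when ganciclovir (GCV) is given and is silent with the vehicle, phosphate-buffered saline (PBS). D-CAN and WT/PBS came from hosts without the transgene, given either the peptide D-CAN, which homes to cancer-associated fibroblasts (CAFs) that resemble adipose stromal cells, or PBS. By the methods, animals received 50 mg/kg of GCV or 30 mg/kg of the peptide on alternate days over 25 days. The animals' age is given as 12 months in the methods and 7 months in the labels, and the labels' protocol describes nuclei of a brain region. All groups share the grafted line. By the methods, cells of several tumors were pooled by treatment before capture, which the sample titles do not mention. A library may thus hold several animals that cannot be told apart.

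During EMT an epithelial cell loses the junctions that hold it to its neighbors and gains the shape and motility of a mesenchymal cell. The zinc finger factors Snai1, Snai2, Zeb1 and Zeb2 and the helix-loop-helix factors Twist1 and Twist2 are its classical drivers, and several of them bind E-boxes in the Cdh1 promoter and repress it. Cdh1 (E-cadherin) and Epcam hold epithelial cells together, whereas Cdh2 (N-cadherin) and the intermediate filament protein Vim (vimentin) are read as mesenchymal. In pancreatic cancer many tumor cells carry both kinds of gene at once, and fibroblasts use much of the same program as part of their normal identity.

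The RefSeq promoter table (GRCm38.p6) held 6 of the 10 genes: Zeb2, Snai1, Twist1, Twist2, Vim and Epcam. Below are the 250 bases before the start of Epcam (chr17:87635729-87635978, plus strand) and of Snai1 (chr2:167537945-167538194, plus strand), shown because among the 10 these genes gave the largest fitted difference between tumor cells and fibroblasts in each direction. Capitals mark the E-box CACCTG, searched on both strands, where the other strand reads CAGGTG.
Epcam: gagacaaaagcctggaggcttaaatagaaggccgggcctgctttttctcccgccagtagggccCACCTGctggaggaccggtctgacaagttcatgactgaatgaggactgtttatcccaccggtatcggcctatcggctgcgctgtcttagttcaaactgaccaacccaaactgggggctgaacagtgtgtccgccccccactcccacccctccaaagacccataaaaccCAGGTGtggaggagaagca
Snai1: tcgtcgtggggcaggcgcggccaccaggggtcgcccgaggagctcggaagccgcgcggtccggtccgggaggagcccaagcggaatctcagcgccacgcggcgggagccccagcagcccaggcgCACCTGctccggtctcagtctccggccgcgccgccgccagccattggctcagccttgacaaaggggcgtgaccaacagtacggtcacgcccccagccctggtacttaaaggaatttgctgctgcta
The E-box was found at -187 and -19 before the start of Epcam and at -126 before that of Snai1, counted to the first base of the match. It was not found in the same window of Zeb2 (any of its 4 listed starts), Twist1, Twist2 or Vim. Of 32851 promoters of this length, 17.2% held it. A match is a description of the letters and not a site in use.

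On mouse build GRCm38 (GENCODE M21), the 6 factors lie at chr18:5591860-5775467 (Zeb1), chr2:44983632-45117395 (Zeb2), chr2:167538195-167542814 (Snai1), chr16:14705852-14709385 (Snai2), chr12:33957671-33959829 (Twist1) and chr1:91801461-91848028 (Twist2). The effectors lie at chr8:106603351-106670246 (Cdh1), chr18:16588877-16809246 (Cdh2), chr2:13573927-13582826 (Vim) and chr17:87635979-87651129 (Epcam).

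With at least 200 genes, 44554 cells were kept, between 10178 and 12280 in a library, and the libraries shared 26 to 42 barcodes in pairs. Cells were classed by 10 markers for each of 11 types, none of them among the 10 genes, which gave 21901 KPC tumor cells and 3495 fibroblasts. Between 66.6% and 81.3% of kept cells in a library were classed. The tumor list holds epithelial genes such as Krt8 and Krt18, and the fibroblast list matrix genes such as Col1a1 and Col3a1. A cell with markers of both lists could stay unclassed. Both classes were thus chosen in part along the axis that the 10 genes describe. Tumor cells numbered 6479 and fibroblasts 224 in Pdgfrb-TK/GCV, 7234 and 411 in Pdgfrb-TK/PBS, 3130 and 1125 in D-CAN, and 5058 and 1735 in WT/PBS. CPM are UMI counts summed over the cells of a class in 1 library and divided by the class total in units of 1e6, without scaling for transcript length, so levels are compared between cells and not between genes. Summed, the 10 fibroblast markers stood at 12668 to 27691 CPM in fibroblasts and 76.9 to 164 CPM in KPC tumor cells. The summed level of the 10 tumor markers was 6567 to 9695 CPM in KPC tumor cells and 535 to 1015 CPM in fibroblasts. Mitochondrial transcripts exceeded 20% of UMIs in 29.3% of cells of D-CAN, 18.2% of WT/PBS, 8.42% of Pdgfrb-TK/PBS and 4.48% of Pdgfrb-TK/GCV. Values below are given for the Pdgfrb-TK hosts first (GCV, then PBS) and for D-CAN and then WT/PBS after them, unless stated.

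KPC tumor cells were first compared with fibroblasts of the same libraries. Tumor cells had more Cdh1 and Epcam, fibroblasts had more of 5 of the 6 factors, and Zeb1, Cdh2 and Vim did not pass the test. The fit (edgeR's quasi-likelihood test on 8 class sums, library as a block, Benjamini-Hochberg over 18633 genes, adjusted p under 0.05) called 50.4% of all genes, 25.9% higher in KPC tumor cells and 24.5% higher in fibroblasts. Of the 10 EMT genes it called 2 higher in tumor cells and 5 higher in fibroblasts, counts to be read against that share. For all 7 the libraries of one class lay wholly above those of the other, as for 37.8% of genes tested.

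Cdh1, the adherens junction cadherin, was at 242, 306, 289 and 272 CPM in KPC tumor cells and at 15.3, 40.02, 25.6 and 27.4 CPM in fibroblasts. Every tumor cell value lay above every fibroblast value, and the level varied little between libraries (277 ± 27.2 CPM, SD, n = 4). The fitted difference was 3.47 on the log2 scale (SE 0.17, edgeR adjusted p = 3.15e-06), an 11.05-fold higher level in tumor cells. With classes taken from clusters in place of the per-cell markers it was 2.38, with no test.

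Epcam, an adhesion molecule of simple epithelia, was at 45.3, 28.8, 24.5 and 45.2 CPM in KPC tumor cells and at 2.62, 3.48, 1.92 and 2.44 CPM in fibroblasts. Tumor cells were higher in 4 of 4 libraries, and the groups did not overlap. The fit gave 3.87 (SE 0.22, edgeR adjusted p = 4.88e-06), or 14.7-fold. With classes from clusters it was 1.56.

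The low Cdh1 and Epcam of fibroblasts were in proportion to other tumor transcripts found there. Fibroblasts held 6.32% to 13.1% of the tumor cells' Cdh1 level and 5.40% to 12.1% of their Epcam level, beside 8.01% to 11.8% for Krt18 and 7.15% to 11.5% for Dsp, a keratin and a desmosomal protein. In macrophages or monocytes the Cdh1 share was 10.96% to 21.3%, beside 4.53% to 12.5% for Krt18 and 5.43% to 11.7% for Dsp. The part of free RNA in these values was not tested.

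Snai1, the factor most tied to the onset of EMT, was at 1.09, 0.32, 0.62 and 2.17 CPM in KPC tumor cells and at 72.9, 65.7, 79.8 and 58.7 CPM in fibroblasts. It was very low in tumor cells of all 4 libraries, was steady among fibroblasts, and the groups did not overlap. The fitted difference was -6.23 (SE 0.47, edgeR adjusted p = 2.24e-05), which made fibroblasts 75.1-fold higher, the widest gap of the 10 genes. After thinning to 2000 UMIs per cell, 0.112% to 0.487% of KPC tumor cells and 9.05% to 13.5% of fibroblasts had a Snai1 UMI, beside 0.262% to 1.16% of macrophages or monocytes.

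Twist1, a mesoderm factor, was at 6.02, 1.02, 7.14 and 4.57 CPM in KPC tumor cells and at 40.02, 52.6, 49.96 and 78.8 CPM in fibroblasts. Tumor cells of Pdgfrb-TK/PBS were the lowest and no tumor cell value came near a fibroblast value. The fit gave -3.72 (SE 0.44, edgeR adjusted p = 0.000257). Its relative Twist2 was at 2.70, 0.57, 1.74 and 1.36 CPM in tumor cells and at 4.86, 9.57, 7.45 and 32.5 CPM in fibroblasts, a difference of -2.92 (SE 0.59, edgeR adjusted p = 0.00421). The Twist2 gap was narrow in Pdgfrb-TK/GCV and wide in WT/PBS, where fibroblasts stood far above those of the other libraries.

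Snai2, known for its part in neural crest migration, was at 4.08, 1.56, 2.04 and 1.91 CPM in KPC tumor cells and at 4.86, 6.09, 7.36 and 17.2 CPM in fibroblasts. In Pdgfrb-TK/GCV both values lay close together, and fibroblasts of WT/PBS were again the highest. The fitted difference was -1.85 (SE 0.43, edgeR adjusted p = 0.00855).

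The share of the fibroblast level found in tumor cells differed between genes. Relative to fibroblasts of the same library, tumor cells had 0.49% to 3.69% of Snai1, 1.94% to 15.0% of Twist1, 4.18% to 55.4% of Twist2 and 11.1% to 84.0% of Snai2. The same share was 0.19% to 0.56% for Col1a1, 0.17% to 0.51% for Col3a1, 0.20% to 0.59% for the fibroblast cadherin Cdh11 and 0.51% to 1.18% for the matrix protein Sparc. The low end of the Snai1 range overlapped those of Col1a1, Col3a1, Cdh11 and Sparc. Its median over the 4 libraries was higher, at 1.14%, against 0.24%, 0.20%, 0.26% and 0.81% for these genes. The ranges of Twist1, Twist2 and Snai2 lay above those of Col1a1, Col3a1, Cdh11 and Sparc.

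The 2 Zeb factors differed from each other. Zeb2 was at 104, 37.5, 83.2 and 65.1 CPM in KPC tumor cells and at 422, 471, 601 and 380 CPM in fibroblasts. All fibroblast values lay above all tumor cell values, and the fitted difference was -2.72 (SE 0.23, edgeR adjusted p = 4.67e-05), or 6.57-fold.

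Zeb1 was at 176, 103, 175 and 141 CPM in KPC tumor cells and at 91.6, 176, 326 and 318 CPM in fibroblasts. The groups overlapped, since in Pdgfrb-TK/GCV tumor cells were the higher and in the other 3 libraries fibroblasts were. The fitted difference was -0.46 (SE 0.31, edgeR adjusted p = 0.256), and without Pdgfrb-TK/GCV it was -0.85 and passed the test (edgeR adjusted p = 0.00683). That library has the fewest fibroblasts of the 4.

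Vim was at 2024, 1802, 1654 and 2433 CPM in KPC tumor cells and at 1764, 1348, 1370 and 2161 CPM in fibroblasts. Tumor cells were slightly higher in 4 of 4 libraries, by 0.17 to 0.42 on the log2 scale, and the groups overlapped. The fit gave 0.31 (SE 0.17, edgeR adjusted p = 0.156) and did not pass the test.

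Cdh2 was at 141, 63.7, 98.9 and 125 CPM in KPC tumor cells and at 241, 211, 38.7 and 69.1 CPM in fibroblasts. Fibroblasts were higher in both libraries of the Pdgfrb-TK model and tumor cells in both of the other hosts, so the fitted difference was near 0 (-0.02, SE 0.46, edgeR adjusted p = 0.982). Fibroblasts with at least 2 mesothelial markers made up 46.4%, 24.3%, 15.2% and 13.1% of fibroblasts in the 4 libraries. With them removed, Cdh2 in fibroblasts was 178, 201, 25.3 and 65.0 CPM and the fitted difference was 0.31 (edgeR adjusted p = 0.62), so the gap between the hosts remained.

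**Figure D1:**
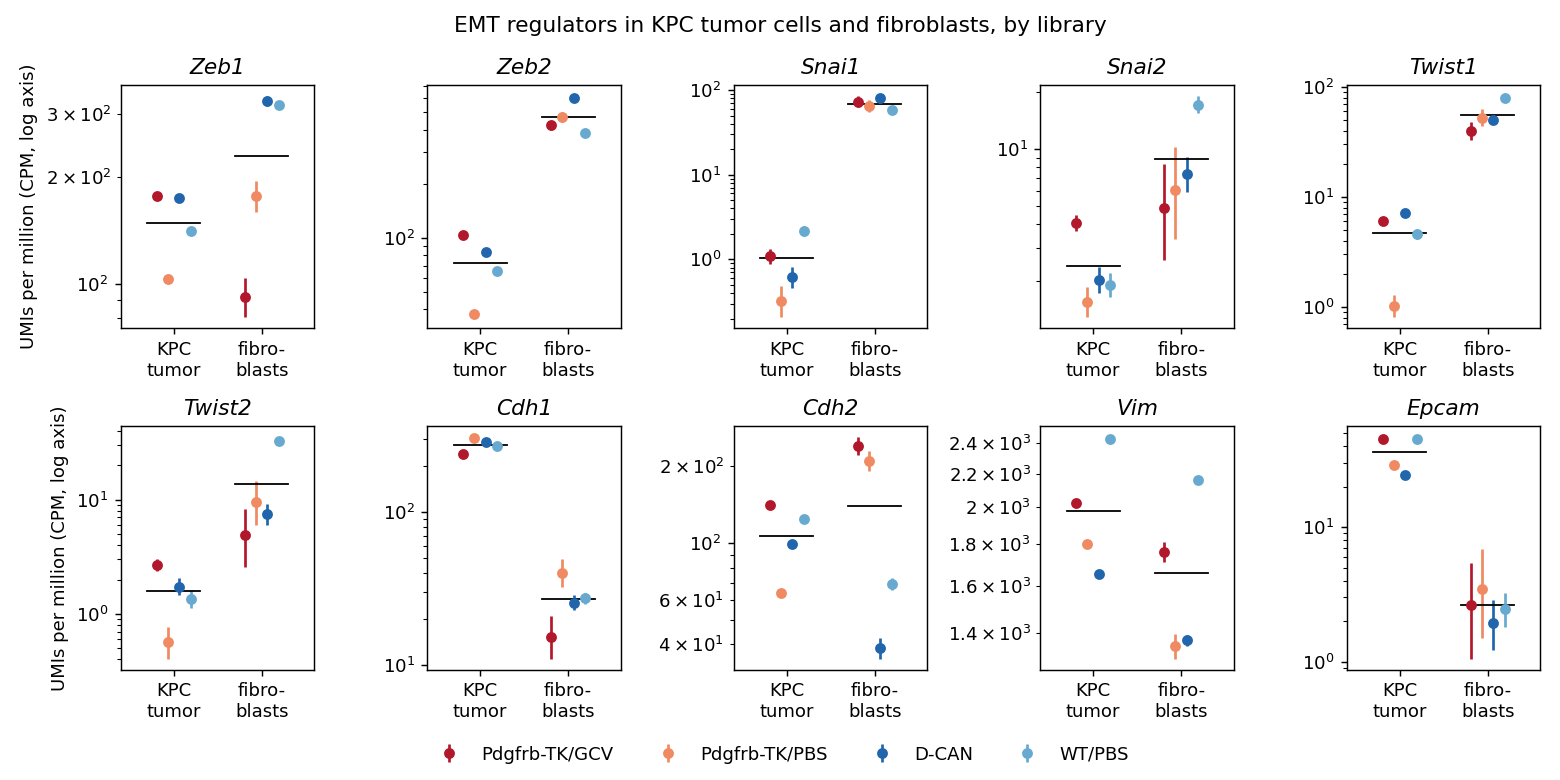
Level of each EMT gene (CPM, log axis) in KPC tumor cells and fibroblasts, 1 point per library with its 95% Poisson interval (counting error only) and a bar at the mean of the 4 libraries. Cdh1 and Epcam stood higher in all tumor cell sums, Zeb2, Snai1, Snai2, Twist1 and Twist2 in all fibroblast sums, and Zeb1, Cdh2 and Vim overlapped.

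**Figure D2:**
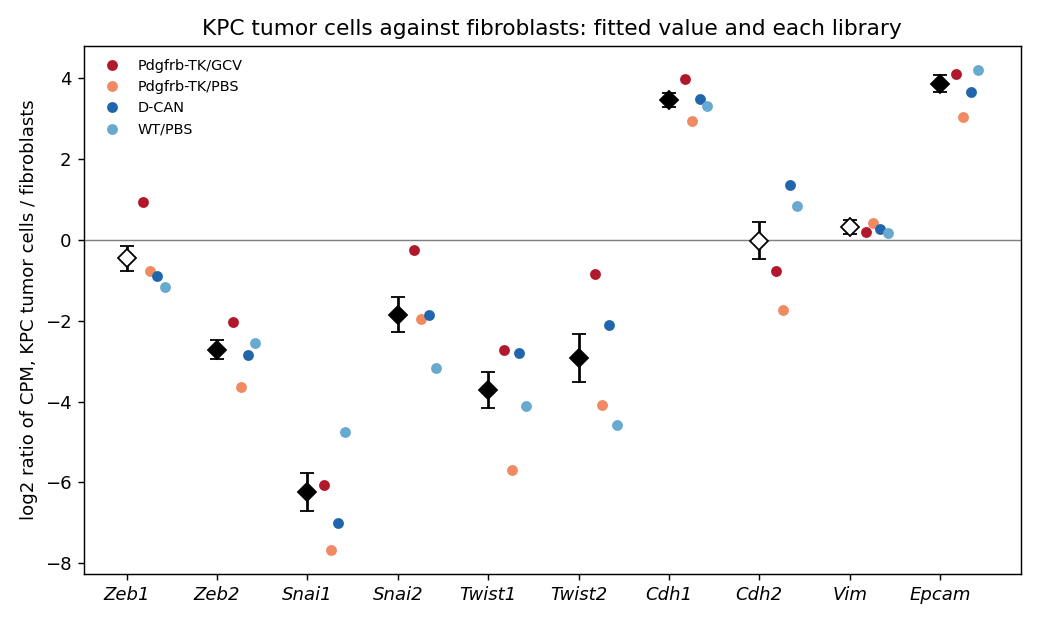
Log2 ratio of CPM between KPC tumor cells and fibroblasts: diamonds are the fitted values with their SE (filled where the adjusted p was under 0.05), and points are the ratios within each library. The points of Zeb1 and Cdh2 lay on both sides of 0, and those of the other 8 genes lay on 1 side.

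Genes that act beside the 10 were followed through 4 lists. Of 8 epithelial identity factors, 6 were higher in KPC tumor cells, with a median log2 difference of 2.56 over the list against 0.09 over all genes tested. Ehf (3.84), Elf3 (3.61), Esrp1 (2.88) and Klf5 (2.77) differed most: Ehf and Elf3 are ETS factors of epithelia, Klf5 is a Krüppel-like factor and Esrp1 a splicing regulator. Esrp1 was at 0.32 to 0.79 CPM in tumor cells and 0 to 0.43 CPM in fibroblasts. Ovol1 and Ovol2, which oppose Zeb factors in other epithelia, did not pass (edgeR adjusted p = 0.82 and 0.863), at no more than 0.28 CPM in tumor cells.

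Of 12 genes of epithelial junctions, 11 could be tested, 9 were higher in KPC tumor cells and 1 was lower, with a median of 2.73. Dsp (3.44), Pkp3 (3.36) and Cldn7 (3.29), of desmosomes and tight junctions, were among the highest. The exception was Cdh3 (P-cadherin), at 0.34 to 0.50 CPM in tumor cells and 10.5 to 40.4 CPM in fibroblasts, a difference of -5.65 (SE 0.34, edgeR adjusted p = 6.66e-06).

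The 12 other EMT transcription factors were mixed: 4 were higher in KPC tumor cells and 6 in fibroblasts, with a median of -0.94. Prrx1, a factor of limb and stromal mesenchyme, was at 6.99 to 15.3 CPM in tumor cells and 167 to 425 CPM in fibroblasts, a difference of -4.66. Foxq1 went the other way, at 86.5 to 125 CPM in tumor cells and 9.04 to 14.6 CPM in fibroblasts, a difference of 3.21. Foxc2 differed by -5.50. Gsc had 0 UMIs in KPC tumor cells and 19 in fibroblasts over the group, which makes it at least 58.9-fold higher in fibroblasts against a floor of 3 counts over all tumor cells, and its edgeR adjusted p was 0.00672. Its fibroblast level was uneven over the libraries, at 0, 0.43, 1.26 and 0.14 CPM, and highest in D-CAN.

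Of 12 mesenchymal effectors, 11 were higher in fibroblasts, with a median of -3.46. Cdh11 (-8.32), Tagln (-8.23), Mmp2 (-7.89) and Acta2 (-7.46), a cadherin, 2 contractile proteins and a gelatinase, were nearly lacking in KPC tumor cells, where they were at most 7.09 CPM. S100a4, a calcium-binding protein, was the one higher in tumor cells (0.83, edgeR adjusted p = 0.023). Vim did not follow these 11 genes, since it was slightly higher in tumor cells of every library.

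Across the 11 cell classes the 10 genes took different orders. Zeb1 had its highest means in T cells (684 ± 516 CPM, SD, n = 4) and endothelial cells (488 ± 63.6 CPM, n = 4), with KPC tumor cells (149 ± 34.5 CPM) and macrophages or monocytes (71.1 ± 37.7 CPM) among the last. Only the endothelial values were closely grouped, at 405 to 542 CPM, while those of T cells ran from 217 to 1392 CPM, so the first 2 places cannot be told apart.

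Zeb2 took another order, in which macrophages or monocytes came first and endothelial cells last, while KPC tumor cells were low for both factors. Macrophages or monocytes had 946 to 2105 CPM, neutrophils 756 to 1508 CPM and pericytes 653 to 1258 CPM, ranges that overlapped, and fibroblasts followed at 380 to 601 CPM without overlap with the pericytes. Endothelial cells were lowest, at 23.3 to 70.0 CPM, and overlapped KPC tumor cells.

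Snai1 was highest in fibroblasts (69.3 ± 9.11 CPM, n = 4), followed by pericytes (28.7 ± 2.96 CPM, n = 3) and endothelial cells (22.4 ± 6.54 CPM, n = 4). Fibroblasts lay above pericytes in the 3 libraries with a pericyte sum, and pericytes overlapped endothelial cells. The pericyte sum of Pdgfrb-TK/PBS held only 23 cells and 69173 UMIs of all genes. Its Snai1 level of 28.9 CPM was below the 43.4 CPM that 3 counts would give, so the order cannot be told in that library. Neutrophils had 9.49 to 34.2 CPM. Snai2 had its highest mean in pericytes (12.8 to 15.8 CPM), but those values rest on 1, 5 and 6 UMIs, and fibroblasts of WT/PBS were higher, at 17.2 CPM from 359 UMIs. Its order among pericytes, endothelial cells (5.83 to 11.1 CPM) and fibroblasts cannot be told at this depth. Twist1 was at 28.4 to 101.2 CPM in pericytes and 40.02 to 78.8 CPM in fibroblasts, which overlapped, and at most 3.05 CPM in endothelial cells. Twist2 had its highest mean in fibroblasts (4.86 to 32.5 CPM), which overlapped pericytes (0 to 12.6 CPM). It was not found in the mesothelial, dendritic and B cell sums. Those sums held 27100 to 490850 UMIs of all genes, few for a gene at this level.

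Cdh1 was highest in KPC tumor cells. Acinar cells (64.5 to 199 CPM, n = 3) had the next mean and lay below tumor cells without overlap. In Pdgfrb-TK/GCV and Pdgfrb-TK/PBS the acinar sums held only 10 cells each, with 15494 and 17914 UMIs of all genes. Acinar cells overlapped B cells (26.1 to 106 CPM), so the order of these classes cannot be told. Cdh2 ranges of fibroblasts, pericytes and tumor cells overlapped, at means of 140, 109 and 107 CPM, and macrophages or monocytes had 10.3 to 21.7 CPM. Vim was highest in pericytes (1937 to 3050 CPM) and endothelial cells (1583 to 2806 CPM), whose ranges overlapped each other and those of tumor cells. Epcam was highest in tumor cells. Endothelial cells of Pdgfrb-TK/GCV had 105 CPM, but 35 of their 36 Epcam UMIs came from 1 cell that also carried 8 tumor markers.

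**Figure D3:**
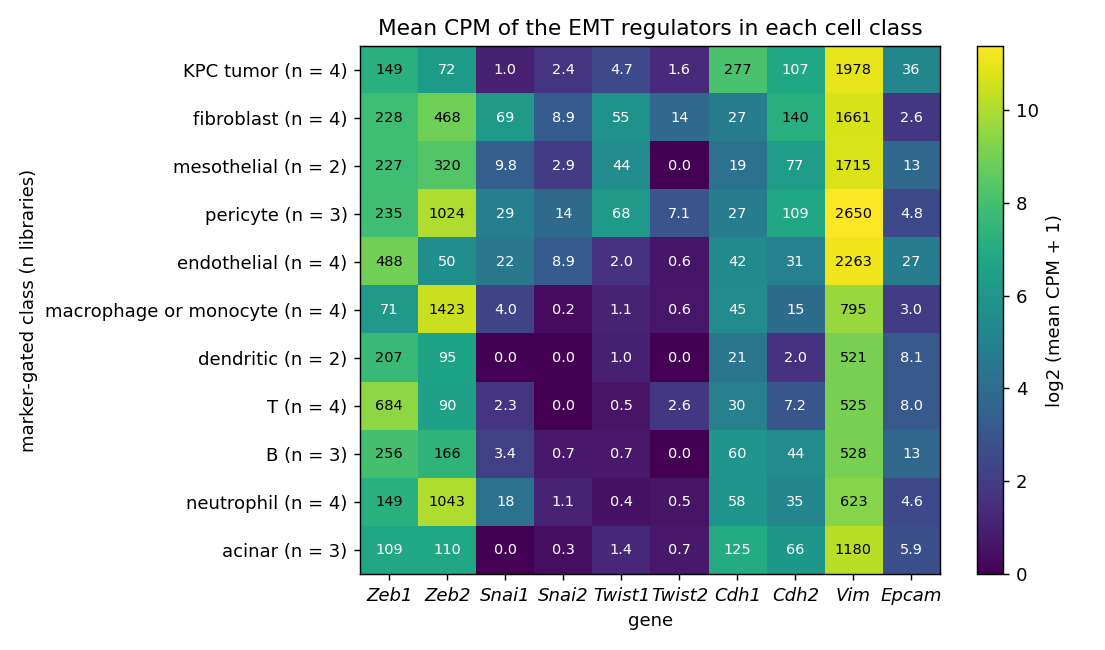
Mean CPM (printed) of each EMT gene in each marker-gated class over the libraries with at least 10 such cells, colored by log2 of mean CPM + 1. Zeb1 peaked in T and endothelial cells, Zeb2 in macrophages or monocytes, neutrophils and pericytes, and Cdh1 in KPC tumor cells.

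Over the 26 class sums of at least 50 cells, the genes whose pattern was most like each of the 10 were named by Pearson's r of log2(CPM + 1) among 11481 genes, as a description of sums that share libraries and depth. Cdh1 was followed most closely by Anxa4 (r = 0.95), Cystm1 (0.94) and Elf3 (0.90). Twist1 was followed by Col6a1, Pakap (both 0.94) and Col5a3 (0.92), Twist2 by Gfra1, Col5a3 (both 0.88) and Dact1 (0.86), and Snai2 by Nid1 (0.93), Nhs and Igfbp7 (both 0.92). Snai1 was most like Ckap4 (0.89), Nhsl2 (0.87) and Zfp503 (0.85). Vim was most like Cyb5r3 (0.93), Selenof (0.92) and Cdc42bpa (0.91). Zeb2 was most like 1700017B05Rik (0.87), Rnf149 (0.85) and Adora2b (0.84), and Cdh2 like Garem1 (0.88), Zfp618 (0.85) and Sardh (0.84). Zeb1, with Zfp68 (0.83), Tnik (0.81) and Ccser2 (0.79), and Epcam, with Gm11808 (0.78), Tjp3 (0.78) and Nolc1 (0.76), had the least close companions.

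UMIs of epithelial and mesenchymal genes were found together in single KPC tumor cells. In cells thinned to 2000 UMIs, Cdh1 and Vim were both found in 29.8%, 37.7%, 32.2% and 34.0% of tumor cells. Tumor cells with a Vim UMI had Cdh1 less often than those without, in every library. The shares were 34.4% against 40.8%, 44.2% against 53.6%, 39.8% against 45.8% and 40.2% against 50.3%. Their counting intervals overlapped only in D-CAN, so the joint shares are no excess over separate detection of the genes. Cdh1 was found in 35.2% to 45.6% of tumor cells (69.6% to 80.8% before thinning, at median depths of 7958 to 20497 UMIs). The thinned share was 4.33% to 9.22% in macrophages or monocytes, whose own expression of Cdh1 was not tested. Vim was found in 80.9% to 86.7% of tumor cells and in 54.3% to 71.7% of macrophages or monocytes, so that class gives no background share for Vim, and none was measured for the pair.

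Cdh1 was found less often in cells that had a Cdh2 UMI than in those without. The shares were 24.9% and 38.0% in Pdgfrb-TK/GCV, 33.0% and 47.2% in Pdgfrb-TK/PBS, 31.0% and 42.6% in D-CAN, and 32.0% and 44.0% in WT/PBS, and their 95% intervals did not overlap in any library. No such order held for Zeb1: Cdh1 was found in 33.6%, 48.3%, 42.7% and 43.4% of cells with a Zeb1 UMI and in 35.8%, 45.0%, 40.3% and 41.3% of those without. Zeb1 itself was found more often in cells with Cdh2 than without, at 40.4% against 24.5%, 32.9% against 18.5%, 38.4% against 24.9% and 33.3% against 19.4%. Cells of 1 library share its preparation, so these intervals cover counting error only.

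KPC tumor cells were then split into 15 clusters, made without the 10 genes and the 4 lists, and the genes are given as a description. Zeb1 ran from 30.7 to 349 CPM over the clusters, Zeb2 from 5.58 to 276, Cdh2 from 10.3 to 318, Epcam from 4.75 to 500, Cdh1 from 109 to 547 and Vim from 608 to 2628. Cdh1 and Vim thus spanned 5.01-fold and 4.32-fold, while Cdh2 spanned 30.9-fold and Zeb2 49.4-fold. The lowest Zeb1 and Vim were those of cluster 12 (964 cells), with a median of 1596 UMIs and a median mitochondrial share of 50.9%. Cluster 13 (1749 cells, led by the hemoglobin genes Hbb-bs and Hba-a1) had a median of 982 UMIs and Zeb1 at 35.9 CPM.

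At one end stood cluster 0 (2527 cells, led by Lingo2, Piezo2 and Nkain2). It had Zeb1 at 349, Zeb2 at 214, Cdh2 at 318 and Snai2 at 6.69 CPM, with Cdh1 at 155 and Epcam at 4.75 CPM. Its Zeb1 level was alike in all 4 libraries, at 336, 355, 380 and 392 CPM, and Cdh2 was 303, 352, 328 and 481 CPM.

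At the other end stood cluster 8 (2267 cells, led by the gastric mucosa genes Gkn2, Gkn1 and Tff1). It had Zeb1 at 44.6, Zeb2 at 5.58, Cdh2 at 10.3 and Snai2 at 0.24 CPM, with Cdh1 at 348 and Epcam at 49.9 CPM. Zeb1 was 46.4, 42.1, 43.3 and 56.3 CPM in the 4 libraries, so no value of cluster 8 came near one of cluster 0. Vim did not follow this axis, at 1495 CPM in cluster 0 and 1951 CPM in cluster 8.

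Cluster 10 (2914 cells, led by Hnf1aos1, Tenm1 and Pik3c2g) combined the highest Cdh1, 547 CPM, with a Zeb1 level of 171 CPM and a Vim level of 860 CPM. Its median mitochondrial share was 11.5%, beside 4.75% in cluster 0 and 4.73% in cluster 8. Cluster 5 had the highest Zeb2, 276 CPM, and also held immune transcripts, with Ptprc at 94.0 CPM against 1.78 CPM in cluster 0. Cluster 14 (147 cells) had the highest Epcam, 500 CPM, and the highest Snai1 and Twist1, 6.41 and 14.7 CPM, and held stromal transcripts, with Col1a1 at 378 CPM against 7.03 CPM in cluster 0. The part of mixed droplets in these values was not tested.

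Over the 15 clusters, which differ in depth and mitochondrial share, Cdh2 moved with Twist1 (Pearson's r of log2(CPM + 1) = 0.85), Twist2 (0.84), Zeb1 (0.83), Snai2 (0.82) and Zeb2 (0.81), and against Cdh1 (-0.48). Zeb1 and Cdh1 showed no relation (r = 0.03), and Cdh1 moved against Snai2 (r = -0.72). Vim was not closely tied to any of the other 9 genes, with r between -0.39 and 0.37.

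**Figure D4:**
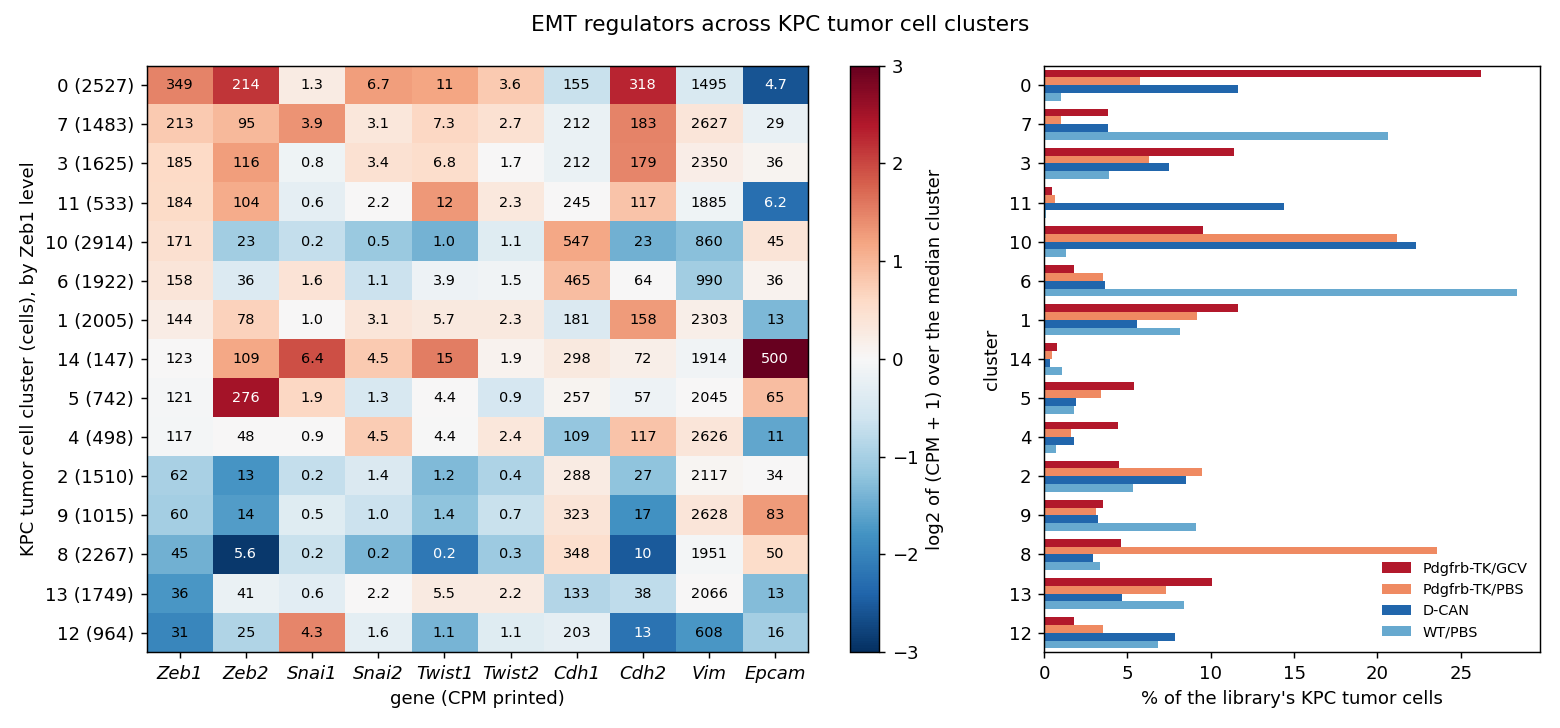
Left, CPM (printed) of each EMT gene in the 15 KPC tumor cell clusters ordered by Zeb1, colored by log2 of (CPM + 1) over that of the median cluster; right, percent of each library's KPC tumor cells in the cluster. Cluster 0, highest in Zeb1 and Cdh2, held 26.2% of tumor cells of Pdgfrb-TK/GCV and 5.72% of Pdgfrb-TK/PBS, and cluster 8 held 4.63% and 23.6%. In D-CAN and WT/PBS cluster 0 held 11.7% and 0.989%, and cluster 8 held 2.91% and 3.36%.

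Epcam was concentrated in few tumor cells. No Epcam UMI was found in 91.0% of KPC tumor cells, while the 349 cells with at least 10 (1.59%) held 67.4% of all Epcam UMIs of the class, and 53.7% to 76.0% within each library. They were deeper than the rest, with a median of 25618 against 11117 UMIs. These cells were chosen by Epcam, so the following is a description. They had Cdh1 at 453 CPM against 269 CPM in the other tumor cells, Cdh2 at 32.1 against 113 CPM, Zeb1 at 80.4 against 153 CPM and Vim at 2117 against 2001 CPM. Cluster 9, led by Sprr1a and Hspa1a, held 21.2% of them, cluster 8 held 15.2% and cluster 14, with its stromal transcripts, held 10.03%. They made up 23.8% of cluster 14, 7.29% of cluster 9 and 2.34% of cluster 8. Besides Epcam, Reg3b, Gpx2, Cldn7 and S100a14 led them, at 82.1 against 1.90, 205 against 21.9, 75.6 against 2.88 and 122 against 11.05 CPM.

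The treated libraries were next set beside the PBS library of their own model. No test is possible with 1 library for each, and intervals cover counting error only. The ratios are of class sums, in which fewer cells that express a gene and less RNA per cell cannot be told apart. Among genes with at least 100 UMIs in both libraries together, 5.94% were past 2-fold, 4.28% higher and 1.66% lower, on log2(CPM + 1), in KPC tumor cells of Pdgfrb-TK/GCV than of Pdgfrb-TK/PBS. Of the 10 genes 4 were higher past 2-fold and 0 lower.

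Tumor cells of Pdgfrb-TK/GCV had more of all 6 factors than those of Pdgfrb-TK/PBS. Zeb2 was at 104 against 37.5 CPM, a ratio of 2.77 (95% interval 2.66 to 2.89), and Zeb1 at 176 against 103 CPM, a ratio of 1.71 (1.66 to 1.76). The 10 macrophage or monocyte markers, a class with high Zeb2, summed to 69.9 against 42.9 CPM in these tumor cells, and their part in the Zeb2 ratio was not tested. Twist1 was at 6.02 against 1.02 CPM (ratio 5.88, 4.63 to 7.57) and Twist2 at 2.70 against 0.57 CPM (ratio 4.77, 3.43 to 6.77). Snai1 and Snai2 had ratios of 3.37 (2.15 to 5.50) and 2.62 (2.12 to 3.24) at levels of at most 4.08 CPM. Cdh2 was at 141 against 63.7 CPM, a ratio of 2.22 (2.14 to 2.29), while Cdh1 was at 242 against 306 CPM, a ratio of 0.79 (0.78 to 0.81). Vim and Epcam were higher in Pdgfrb-TK/GCV, with ratios of 1.12 and 1.58. Against the other PBS library, WT/PBS, 0 of the 10 were past 2-fold, a pair for which the share of all genes was not taken. The PBS libraries themselves differed. Between Pdgfrb-TK/PBS and WT/PBS 9.55% of genes were past 2-fold, 5.45% higher and 4.1% lower in Pdgfrb-TK/PBS. Of the 10 genes 2 were lower there past 2-fold and 0 higher: Snai1, at 0.32 against 2.17 CPM, and Twist1, at 1.02 against 4.57 CPM.

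The mix of tumor cell clusters moved with these values. Cluster 0 held 26.2% of tumor cells of Pdgfrb-TK/GCV and 5.72% of Pdgfrb-TK/PBS, and cluster 8 held 4.63% and 23.6%. Ratios with 1 mix of the 13 clusters that both libraries filled are given on log2(CPM + 1). The log2 ratio of Zeb1 was then -0.08 in place of 0.77, that of Zeb2 0.16 in place of 1.45 and that of Cdh2 -0.19 in place of 1.14. Twist1 kept a log2 ratio of 1.09 in place of 1.79, and was higher in 12 of the 13 clusters and in none lower. Over all tumor cells it had 585 UMIs in Pdgfrb-TK/GCV and 76 in Pdgfrb-TK/PBS, so single clusters rest on few UMIs. In clusters 8, 9 and 10 Twist1 was at most 0.54 CPM in either library. The log2 ratio of Epcam was 1.17 in place of 0.64, and it was higher in 12 of 13. Within cluster 0 Zeb1 was 336 against 355 CPM, and within cluster 8 it was 46.4 against 42.1 CPM.

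For D-CAN against WT/PBS, 12.1% of genes were past 2-fold, 9.35% higher and 2.71% lower, in KPC tumor cells, and 0 of the 10 were past it on log2(CPM + 1). Zeb1 was at 175 against 141 CPM (ratio 1.24, 1.21 to 1.27) and Zeb2 at 83.2 against 65.1 CPM (ratio 1.28, 1.24 to 1.32). Cdh1 was at 289 against 272 CPM, a ratio of 1.06 (1.05 to 1.08). Lower in D-CAN were 4 genes: Epcam, at 24.5 against 45.2 CPM (ratio 0.54, 0.51 to 0.57), Vim, at 1654 against 2433 CPM (ratio 0.68), Cdh2, at 98.9 against 125 CPM (ratio 0.79), and Snai1, at 0.62 against 2.17 CPM (ratio 0.29, 0.21 to 0.39). With 1 mix of 12 clusters Cdh2 had a log2 ratio of -0.84 in place of -0.33 and was lower in 11 of 12. Of these 12, cluster 0, with the highest Cdh2, rests on 50 tumor cells of WT/PBS. Vim was lower in 10 of 12 clusters. Cluster 11, led by the interferon-induced Iigp1, Gbp2 and Cxcl9, held 14.4% of tumor cells of D-CAN and 0.138% of WT/PBS, and had Zeb1 at 184, Cdh2 at 117 and Twist1 at 12.4 CPM. It was not among the 12 clusters, which needed at least 50 cells in each library, since WT/PBS had 7 cells there. The mix differed in other clusters too. Cluster 0 held 11.7% of tumor cells of D-CAN and 0.989% of WT/PBS, and cluster 10 held 22.3% and 1.29%. Cluster 6 held 3.64% and 28.4%, cluster 7 held 3.83% and 20.6%, and cluster 8 held 2.91% and 3.36%.

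Among fibroblasts, 5.44% of genes were past 2-fold between Pdgfrb-TK/GCV and Pdgfrb-TK/PBS, 2.11% higher and 3.33% lower with GCV, and of 7 EMT genes with enough UMIs 1 was lower, Cdh1 at 15.3 against 40.02 CPM. In the same sums the 10 tumor markers were at 536 against 973 CPM, the 10 macrophage or monocyte markers at 127 against 28.7 CPM and the 10 fibroblast markers at 12668 against 20783 CPM. Their part in these ratios was not tested. Zeb1 was at 91.6 against 176 CPM, a ratio of 0.52 (0.44 to 0.61). Zeb2, Snai1 and Cdh2 differed little, with ratios of 0.90, 1.11 and 1.14. Twist1 was at 40.02 against 52.6 CPM, a ratio of 0.76 (0.58 to 0.99). These fibroblasts number 224 and 411, the fewest of the series.

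Fibroblasts of D-CAN had 18.2% of genes past 2-fold from WT/PBS, 11.8% higher and 6.41% lower, and of 9 EMT genes with enough UMIs 2 were lower. Twist2 was at 7.45 against 32.5 CPM, a ratio of 0.23 (0.18 to 0.29), and Snai2 at 7.36 against 17.2 CPM, a ratio of 0.43 (0.34 to 0.54). Twist1 was also lower, at 49.96 against 78.8 CPM (ratio 0.63, 0.58 to 0.70), whereas Zeb2 was higher, at 601 against 380 CPM (ratio 1.58, 1.53 to 1.63), as was Snai1 (ratio 1.36, 1.25 to 1.48). Zeb1 was at 326 against 318 CPM (ratio 1.03, 0.99 to 1.07). In these sums both Twist genes and Snai2 were lower and Snai1 and Zeb2 higher in D-CAN. The fibroblasts of these libraries fell into different clusters of all cells: 579 of D-CAN lay in cluster 18, 425 in cluster 0 and 95 in cluster 2, whereas 1617 of WT/PBS lay in cluster 0. Within cluster 0 the 5 factors had the same directions, with Twist2 at 5.6 against 33.6 CPM, Snai2 at 7.47 against 17.6, Twist1 at 55.6 against 80.1, Zeb2 at 598 against 388 and Snai1 at 76.7 against 60.3 CPM. Zeb1 was there at 247 against 321 CPM and Cdh2 at 74.0 against 65.9 CPM. In cluster 18 Cdh2 was at 12.7 CPM and Zeb1 at 391 CPM. Against Pdgfrb-TK/PBS, whose fibroblasts had Snai2 at 6.09 and Twist2 at 9.57 CPM, D-CAN fibroblasts had no gap past 2-fold in these genes. Between the PBS libraries 17% of genes were past 2-fold in fibroblasts, 8.74% higher and 8.25% lower in Pdgfrb-TK/PBS, and so were Cdh2 (higher, ratio 3.05), Twist2 and Snai2 (lower, ratios 0.29 and 0.35).

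**Figure D5:**
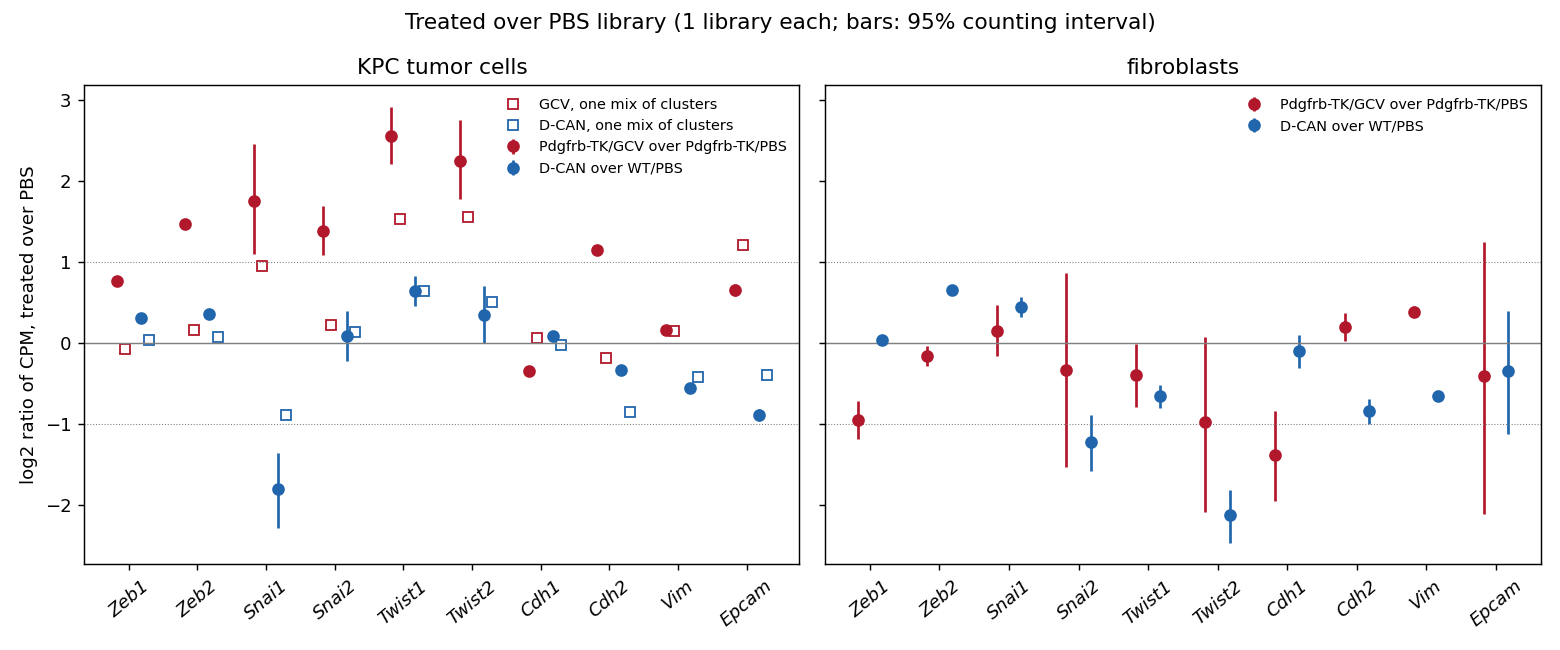
Log2 ratio of CPM (no pseudocount) of each treated library over the PBS library of its own model, in KPC tumor cells and fibroblasts, with 95% counting intervals; open squares give the ratio with 1 mix of tumor cell clusters in both libraries and dotted lines mark 2-fold. In KPC tumor cells of Pdgfrb-TK/GCV the ratios of Zeb1, Zeb2 and Cdh2 lay near 0 with 1 mix. Those of Twist1, Twist2 and Epcam stayed above it, as did that of Snai1, at 0.77 against 0.40 CPM with 1 mix.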

How the data were processed

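The authors deposited 1 matrix of UMI counts per library, made with Cell Ranger (3.1.0 in the methods, 7.0.0 in the file headers) and STAR 2.6 on mm10 per the labels, from 3' droplet libraries. Whether intronic reads were counted is not given in the sources used here. The 5 reporter features listed for the hosts without the transgene were left out. Cells with at least 200 genes took the class whose 10 markers led by at least 2, with at least 3 found. No doublet caller was run. Counts were summed per library and class and CPM were taken over all genes.

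KPC tumor cells and fibroblasts were compared by edgeR 4.0.16 (R 4.3.3), with TMM, filterByExpr and library as a block. The fit was also run on simulated counts. These were drawn without library or treatment effects, so they do not show how the fit behaves on libraries like these. DESeq2 1.42.0 was an alternative. Each library gave both sums, which pairs them, and p-values measure the spread between these 4 libraries, whose treatments differ. Treatments have 1 library each and no test. Ratios have exact conditional binomial intervals, levels exact Poisson intervals and shares exact Clopper-Pearson intervals (95%), which cover counting error only. Clusters of tumor cells (scanpy 1.11.5) used 2000 variable genes, without the 10 genes and the lists.

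The 10 genes and the lists were chosen with earlier results of these data known. Of each list, up to 4 genes past the threshold with the largest fold change were named, and for each of the 10 genes the 3 most similar in pattern. Ovol1, Ovol2, S100a4 and the collagen, keratin and Ptprc levels were named after their values were seen. Depth was 84020317 to 155408336 UMIs per library.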

Additional observations from a re-analysis of the deposited data

Results flagged for a closer look

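In KPC tumor cells 5 of the 10 genes moved in opposite directions under the treatments, each treated library being read against its PBS counterpart, with counting intervals of both ratios that leave out 1. The share of all genes that meet this rule was not taken, so the count has no such share to be read against. At these depths counting intervals leave out 1 for small shifts too. The difference between the treatments was not tested, since each rests on 1 library per condition. The log2 ratios of this section are on log2(CPM + 1), which shrinks those of genes at low levels. For Snai1 the log2 ratio was 0.66 with GCV and -0.97 with D-CAN, a gap of 1.63. Without the added 1, its ratios of CPM were 3.37 and 0.29, at levels of at most 2.17 CPM. For Epcam the log2 ratio was 0.64 and -0.86, a gap of 1.495, and for Cdh2 1.14 and -0.33, a gap of 1.47. For Vim it was 0.17 and -0.56, a gap of 0.72, and for Cdh1 -0.34 and 0.09, a gap of -0.43. With 1 mix of clusters the ratio of Cdh2 was -0.19 with GCV and -0.84 with D-CAN, so its directions were then the same, and that of Cdh1 was 0.064 and -0.026, so both of its directions turned. With the PBS libraries exchanged, Snai1 was at -0.60 with GCV and 0.29 with D-CAN, Cdh2 at 0.18 and 0.63, Vim at -0.26 and -0.12, and Cdh1 at -0.16 and -0.083. Epcam kept its directions with 1 mix of clusters, at 1.17 and -0.38, as did Snai1, at 0.34 and -0.46, and Vim, at 0.16 and -0.42. With the PBS libraries exchanged Epcam was at 0.0041 and -0.22. With GCV it then hardly differed, at 45.3 against 45.2 CPM, so that direction was not kept.

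In fibroblasts 3 genes did so, again without a share of all genes to read the count against, and the difference was not tested either. The log2 ratio of Vim was 0.39 with GCV and -0.66 with D-CAN (gap 1.05), that of Cdh2 0.19 and -0.82 (gap 1.02), and that of Zeb2 -0.16 and 0.66 (gap -0.81). Without fibroblasts that carry mesothelial markers the ratio of Cdh2 was -0.17 with GCV and -1.33 with D-CAN. Within cluster 0 of all cells, which held 425 fibroblasts of D-CAN and 1617 of WT/PBS, Cdh2 was at 74.0 against 65.9 CPM, so its direction with D-CAN turned, while cluster 18, with 579 fibroblasts of D-CAN, had 12.7 CPM. Against the other PBS library Zeb2 was at 0.15 with GCV and 0.35 with D-CAN, and Vim at -0.29 and 0.024.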

How the results depend on the processing

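Between KPC tumor cells and fibroblasts, 2 of the 10 genes were called higher in tumor cells and 5 in fibroblasts, and each of the 7 kept its call in 14 alternatives with a test, with adjusted p up to 0.0385 for Snai2 and 0.0307 for Twist2. Without the library as a replicate block, 2 and 5 were called, the same genes. Vim and Cdh2 passed in none of the 14 and Zeb1 only without Pdgfrb-TK/GCV. The near-zero difference of Cdh2 turned positive with cells over 20% mitochondrial UMIs removed (0.014), without fibroblasts carrying mesothelial markers (0.31, chosen after seeing the data), without the filter on low counts (0.048), without Pdgfrb-TK/GCV (0.31) and without Pdgfrb-TK/PBS (0.50). Leaving out 1 library at a time, it ran from -0.49 to 0.50. With classes from clusters, with no test, Cdh1 differed by 2.38 and Epcam by 1.56. Treatment counts moved with the PBS library. Set against that of the other model, the genes past 2-fold in tumor cells of Pdgfrb-TK/GCV were 0 higher in place of 4, and in D-CAN 2 higher in place of 0. In GCV fibroblasts 1 was higher in place of 0, and in D-CAN fibroblasts 1 was lower in place of 2. The gene lower in D-CAN fibroblasts was then Cdh2, at -2.42 in place of -0.82. Neither of the former 2 stayed past 2-fold, with Snai2 at 0.24 in place of -1.12 and Twist2 at -0.32 in place of -1.99. With 1 mix of clusters, chosen after seeing the data, 2 were higher in tumor cells of Pdgfrb-TK/GCV. These were Twist1, at 1.09, and Epcam, at 1.17 in place of 0.64. Of the former 4, Twist2 was then at 0.86 in place of 1.24, Zeb2 at 0.16 in place of 1.45 and Cdh2 at -0.19 in place of 1.14. With classes from clusters 0 were lower in GCV fibroblasts in place of 1 and 1 in D-CAN fibroblasts in place of 2. In tumor cells of D-CAN 1 was lower in place of 0 with the stricter gate and 1 with TMM-scaled CPM. The share of all genes past 2-fold was not taken in these alternative settings, so their counts have no such share to be read against. The ratios with 1 mix of clusters are a description, and the cause of these differences was not tested. Low UMI counts limit Snai1, Snai2 and Twist2 in tumor cells, Twist1 in tumor cells of Pdgfrb-TK/PBS, and Snai2, Twist2 and Epcam in fibroblasts of the Pdgfrb-TK model.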
